A study of Rattus norvegicus with 14 samples.

Results

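Epithelial junction genes were followed in PCCL3 cells, an established rat thyroid follicular cell line. They were chosen by name from the table of gene counts: every numbered claudin (Cldn), cadherin (Cdh), connexin (Gja, Gjb, Gjc), zonula occludens protein (Tjp), plakophilin (Pkp), desmocollin (Dsc) and desmoglein (Dsg), together with Ocln, Marveld2, Marveld3, F11r, Epcam and Jup. This gave 70 genes of the 16816 gene symbols in the table. Dsp and Cgn belong to the same set of names but had no row under these symbols in the table, so they were not analysed here. The choice used gene names and no measured value.

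All cells were PCCL3 cells stably transfected either with an empty vector (EV cells) or with the Myc-tagged human PAX8-PPARG fusion protein (PPFP cells), which joins the thyroid transcription factor PAX8 to the nuclear receptor PPARG. Both were exposed to the PPARG agonist pioglitazone (1 μM, from a DMSO stock) or to DMSO alone, in each case for 16 hours. Each of the 4 groups had 3 RNA-seq libraries, described as independent experiments, 12 in all. Culture medium held bovine TSH and insulin. Each cell type is a stable transfectant, so a difference between EV and PPFP cells compares these transfected cells, and whether either is a single clone is not given in the sources used here. Cells were harvested before full confluence.

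Epithelial cells hold to each other through several structures. Tight junctions seal the space between neighbours: claudins form the seal and its ion-selective pores, occludin and tricellulin (Marveld2) are MARVEL-domain membrane proteins of the strands and of the corners where cells meet, JAM-A (F11r) is an immunoglobulin-like adhesion molecule, and the zonula occludens proteins tie all of them to actin. Adherens junctions use classical cadherins such as E-cadherin (Cdh1) and N-cadherin (Cdh2), desmosomes use desmogleins and desmocollins linked to intermediate filaments through plakoglobin (Jup) and plakophilins, and connexins form gap junction channels that pass small molecules from cell to cell. In the thyroid, tight junctions close the follicle in which thyroglobulin is stored, and Cdh16 is a cadherin typical of kidney and thyroid epithelium.

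Total counts were between 23724703 and 35240176 per library. Pparg, whose reads cannot be divided here between the rat gene and the human part of the fusion, had in the absence of pioglitazone a level of 1.60 ± 0.347 CPM in EV and 54.1 ± 6.82 CPM in PPFP libraries, with no overlap (CPM, counts scaled to normalized library size; mean ± SD, n = 3). All 8 thyroid markers examined were above the floor of 3 counts in every group, with summed levels, mostly thyroglobulin, between 10021 and 14662 CPM over the libraries. In PPFP versus EV cells without pioglitazone 6 of 8 passed an adjusted p of 0.05 (45.2% of all genes), 5 of them lower and 1 higher in PPFP cells, with 3 called lower (7.31%). With pioglitazone 7 passed (52.7%) and 4 were called lower (10.4%). Foxe1 went from 872.6 ± 30.4 to 132.3 ± 16.0 CPM and Slc5a5, the iodide transporter, from 1122 ± 39.9 to 338.8 ± 31.6 CPM (n = 3, without pioglitazone). Pioglitazone in PPFP cells lowered 5 of the 8 at that threshold (14.8% of all genes passed), 1 of them called (2.42%). Of the general epithelial keratins, Krt18 never passed the floor in any group, and Krt19 passed it only in PPFP cells with pioglitazone (2, 7 and 2 counts). Krt8 fell from 3.57 ± 0.694 CPM in EV to 0.0498 ± 0.0862 CPM in PPFP libraries without pioglitazone, where it had 0, 4 and 0 counts (adjusted p = 0.00024, edgeR). Col1a2, Col3a1 and Pdgfrb (fibroblasts), Pecam1 (endothelium) and Ptprc (leukocytes) were at or under the floor in all 4 groups. Other markers on these lists were not: Vwf (endothelium) was at 0.481 ± 0.152 CPM in EV and 1.09 ± 0.379 CPM in PPFP cells without pioglitazone (called, edgeR adjusted p = 0.038) but did not pass with it (adjusted p = 0.74), and Cd68 (macrophages) was 1.81-fold higher in PPFP cells without (adjusted p = 0.048) and 2.27-fold higher with pioglitazone (adjusted p = 0.016). Pdgfra (fibroblasts) was at 21.1 ± 1.14 CPM in EV and 25.2 ± 5.36 CPM in PPFP cells without pioglitazone, was higher in PPFP than in EV cells with pioglitazone by 0.46 on the log2 scale (SE 0.12, adjusted p = 0.014), and Col1a1 was near 2 CPM and did not pass. The summed fibroblast list was between 20.4 and 34.5 CPM over all libraries, and the endothelial and leukocyte lists were each between 0.210 and 1.49 CPM. The part of these and of the thyroid and keratin differences in the results below was not tested. Replicates 2 and 3 of PPFP cells with pioglitazone were unusually alike: the mean chi-square per gene between them was 1.67, against 17.2 to 109 for the other 11 pairs of replicates, where counting noise alone gives about 1. They still differed by more than counting noise and were kept as separate libraries, and counts of junction genes that involve them are also given without one of them. The thyroid marker counts were not recomputed without them. The next closest pair, at 17.2, was replicates 2 and 3 of PPFP cells without pioglitazone, and the third lowest value was 31.9. The median chi-square per gene was 0.646 and 1.12 for these 2 pairs of PPFP libraries, and 4.40 or more for the rest. So replicates 2 and 3 were close in both PPFP groups.

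Much of the junction repertoire had few or no reads in these cells. Of the 70 genes, 16 had no read in any of the 12 libraries, another 16 never had more than 3 counts, and 38 passed 3 counts in some library. Only 24 had enough reads to be tested in at least 1 comparison. By family, 5 of 19 cadherins, 4 of 22 claudins, 4 of 13 connexins, 4 of 8 desmosomal genes, 6 of 7 scaffold, MARVEL and JAM genes, and Epcam were tested. A gene could enter a test through the group in which it was high, so counts among tested genes do not describe all 70.

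**Figure D1:**
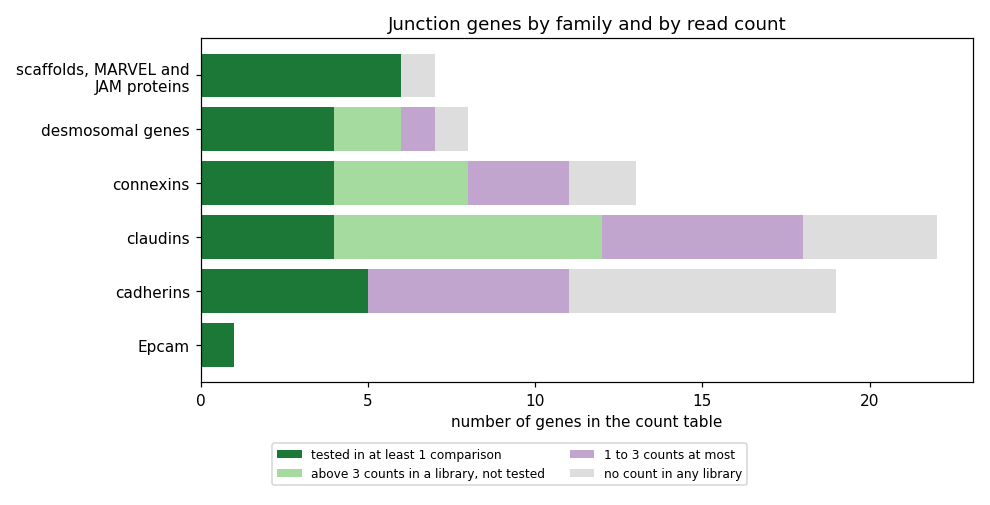
Number of junction genes in each family (horizontal axis, genes in the count table), split by how many reads they had in the 12 libraries. Of 22 claudins only 4 were tested, whereas 6 of the 7 scaffold, MARVEL and JAM genes were.

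Several genes often used as epithelial or mesenchymal junction markers were at the floor whatever the group. Cldn7 had no count at all, and Cldn1, Cldn4, Cdh3 (P-cadherin) and Gja1 (the widespread connexin of heart and many epithelia) never exceeded 3 counts. Cldn3 reached 5 counts in 1 library, replicate 3 of EV cells with pioglitazone, and had at most 3 in all others. Cdh5, the endothelial cadherin, and Cdh11, a mesenchymal cadherin, had no count. At this depth these genes were not detectable beyond a few reads.

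The rat genome places some of these genes next to each other. On RefSeq's GRCr8 assembly, in which all 70 genes were found by symbol, 15 pairs of adjacent protein-coding genes belong to the set. Among them are Ocln and Marveld2 on chromosome 2, Cldn6 and Cldn9 on chromosome 10, and Cdh3 and Cdh1 on chromosome 19. Neighbours could differ in detection: Cdh1 had reads in every library while Cdh3 was at the floor.

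The upstream sequences of the neighbours Ocln and Marveld2 are shown because these adjacent genes encode related MARVEL proteins and had different fold changes in the comparisons that follow. Each is the 250 bases before the RefSeq gene start, read 5′ to 3′ on the strand of the gene (the minus strand for both), in GRCr8, at chr2:33441199-33441448 for Ocln and chr2:33498226-33498475 for Marveld2. Capitals mark the E-box CACCTG, a hexamer bound by Snail and ZEB repressors of epithelial genes, or its reverse complement CAGGTG.
Ocln: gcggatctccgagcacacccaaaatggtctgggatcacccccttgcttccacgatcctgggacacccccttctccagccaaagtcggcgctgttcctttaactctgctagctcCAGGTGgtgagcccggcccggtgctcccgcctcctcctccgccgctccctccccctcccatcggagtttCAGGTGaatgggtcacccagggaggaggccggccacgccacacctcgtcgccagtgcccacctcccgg
Marveld2: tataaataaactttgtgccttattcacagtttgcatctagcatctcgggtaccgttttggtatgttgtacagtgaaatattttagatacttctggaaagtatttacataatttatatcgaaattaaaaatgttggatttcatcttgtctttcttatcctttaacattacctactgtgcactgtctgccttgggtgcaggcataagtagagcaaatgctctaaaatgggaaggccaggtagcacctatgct

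The Ocln window held the E-box at 2 places, both on the opposite strand, starting 137 and 68 bases before the gene start, and the Marveld2 window held none. A window was matched for 16 of the 24 tested genes, and 6 of these 16 held the E-box on either strand (Dsc2, Epcam, F11r, Jup, Ocln and Tjp3), against 15.9% of all 33469 windows of the same length. No window of the 16 held the PPAR half-site AGGTCA, found in 14.1% of all windows, the spaced PPAR element AGGTCANAGGTCA (0.0508%), which contains the half-site, or the PAX core GCGTGAC (1.74%). A match of letters is a description of the sequence and not of binding.

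The first comparison was PPFP cells versus EV cells without pioglitazone. In it an effect of the fusion protein cannot be told apart from other differences between the 2 transfected cell types. Of 20 junction genes tested, 10 differed at an adjusted p under 0.05 (quasi-likelihood test in edgeR, Benjamini-Hochberg adjusted over all genes), 6 higher and 4 lower, where 45.2% of the 10264 genes tested differed. With a fold change above 2 as well, which is what called means below, 2 genes were higher (Cdh23 and Gjb5; 7.27% of all genes tested) and 3 lower (Cdh15, Cdh16 and Cldn9; 7.31%). The median log2 fold change was 0.08 over the 20 genes, also with genes at the floor set to their bound, and 0.002 over all genes. In the same comparison with pioglitazone in both cell types, 14 of 22 tested genes differed, 8 higher and 6 lower (52.7% of 10291 genes), and 9 were called: 6 higher (9.30% of all genes) and 3 lower (10.4%). The median log2 fold change there was 0.02 over the 22 genes, again also with bounds, and 0.012 over all genes. The 10 genes that differed without pioglitazone all differed in the same direction with it. With total counts alone as the scaling, which moved the median of all genes to -0.125, there were 5 higher and 4 lower calls, 8 of them shared with the 9 above: Cldn12 was lost and Gjb1 gained. Over all 10291 genes that scaling gave 817 higher and 1241 lower calls, against 957 and 1069 before. Without replicate 2 of PPFP cells with pioglitazone 8 junction genes were called (895 higher and 1150 lower of all 10395 genes). Without replicate 3 there were 9 (908 and 1142 of all 10376 genes). Of the 14 genes past the adjusted p, 13 passed it without either of these libraries, and Epcam did not.

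**Figure D2:**
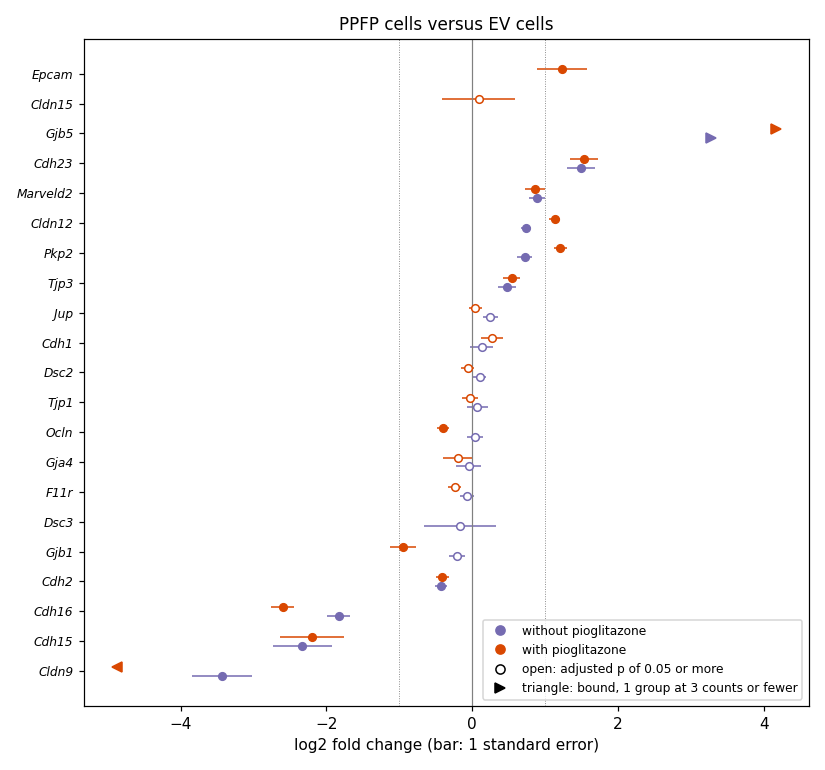
Log2 fold change of PPFP over EV cells (horizontal axis; bars are 1 standard error) for the junction genes tested and reported here, without and with pioglitazone; filled points passed an adjusted p of 0.05 and dotted lines mark a 2-fold change. Triangles are lower bounds on the size of the change where 1 group was at the floor (Gjb5, and Cldn9 with pioglitazone); Cldn9, Cdh15 and Cdh16 lie below -1 in both settings and Gjb5 and Cdh23 above 1.

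Among cadherins, Cdh16 was high in EV cells and low in PPFP cells. Its level without pioglitazone was 119.6, 140.6 and 99.0 CPM in the 3 EV libraries and 28.6, 36.0 and 36.7 CPM in the 3 PPFP libraries. With pioglitazone it was 113.6, 125.0 and 84.4 CPM in EV cells and 15.3, 18.7 and 18.4 CPM in PPFP cells. The groups were well apart in both settings, and the lowest EV library held over 2 times the level of the highest PPFP library. The log2 fold change was -1.83 (SE 0.16, adjusted p = 9.5e-05, edgeR) without and -2.60 (SE 0.16, adjusted p = 2.4e-05) with pioglitazone.

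Cdh15, M-cadherin, known from skeletal muscle, was measured at a low level and was lower in PPFP cells. Without pioglitazone EV libraries had 51, 35 and 26 counts (1.25 ± 0.434 CPM, n = 3) and PPFP libraries 9, 6 and 4 counts (0.242 ± 0.0814 CPM). The groups did not overlap, although PPFP cells had few reads, and the log2 fold change was -2.33 (SE 0.40, edgeR adjusted p = 0.0026). With pioglitazone it was -2.20 (SE 0.44, adjusted p = 0.0046).

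Cdh23, a long cadherin known from the tip links of sensory hair cells, rose instead. It was at 2.36, 2.55 and 1.80 CPM in EV libraries and 5.63, 7.09 and 6.21 CPM in PPFP libraries without pioglitazone, a log2 fold change of 1.49 (SE 0.19, edgeR adjusted p = 0.00069). With pioglitazone it was at 2.36, 1.93 and 1.71 CPM in EV and 5.22, 5.30 and 6.64 CPM in PPFP libraries, a log2 fold change of 1.53 (SE 0.19, adjusted p = 0.00054). Every PPFP library was above every EV library.

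Of the classical cadherins, Cdh1 did not pass the test and Cdh2 fell by less than 2-fold. Cdh1, E-cadherin, was between 8.69 and 12.7 CPM in EV and at 11.9, 12.7 and 10.9 CPM in PPFP libraries without pioglitazone, with overlapping groups. Its log2 fold change was 0.13 (SE 0.16, edgeR adjusted p = 0.54) without and 0.27 (SE 0.15, adjusted p = 0.17) with pioglitazone. Cdh2, N-cadherin, fell modestly, from 93.3, 98.9 and 87.8 CPM in EV libraries to 71.2, 69.0 and 67.6 CPM in PPFP libraries. The groups did not overlap, and the log2 fold change was -0.43 (SE 0.08, edgeR adjusted p = 0.0033) without and -0.41 (SE 0.09, adjusted p = 0.0063) with pioglitazone, in both cases below the 2-fold limit.

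Of the claudins tested, Cldn9 fell and Cldn12 rose. Cldn9, a claudin known for limiting sodium and potassium passage in the inner ear, had 114, 82 and 108 counts in EV libraries without pioglitazone (3.40 ± 0.576 CPM, n = 3) and 3, 14 and 7 counts in PPFP libraries (0.311 ± 0.206 CPM). Its log2 fold change was -3.43 (SE 0.41, edgeR adjusted p = 0.00047). With pioglitazone EV libraries had 134, 66 and 108 counts and PPFP libraries 0, 2 and 2 counts, which is at the floor, so that the level was at least 29.3-fold higher in EV cells, taking 3 counts per PPFP library as the bound (adjusted p = 0.00012).

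Cldn12, a claudin known for paracellular calcium passage, varied little between replicates. It was at 42.1, 42.8 and 41.5 CPM in EV libraries and 70.9, 70.2 and 70.3 CPM in PPFP libraries without pioglitazone. With pioglitazone it was at 42.4, 41.9 and 42.7 CPM in EV and 91.4, 94.1 and 90.2 CPM in PPFP libraries. EV levels were alike in both media and PPFP levels were higher in each, with no overlap. The log2 fold change was 0.74 (SE 0.07, edgeR adjusted p = 0.00019) without and 1.13 (SE 0.07, adjusted p = 2.2e-05) with pioglitazone. The second passed the 2-fold limit narrowly, and with total counts alone as the scaling it was 1.00 and not called.

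Cldn15, a channel-forming claudin of the intestine, was tested only with pioglitazone (0.367 ± 0.228 CPM in EV and 0.396 ± 0.0162 CPM in PPFP cells, n = 3), with a log2 fold change of 0.09 (SE 0.50, edgeR adjusted p = 0.89). When the filter on low counts was dropped, 7 of the 52 junction genes then tested were called without pioglitazone (13.6% of all 12959 genes then tested) and 12 of 52 with it (18.4% of 13001). The added claudins were Cldn2, a channel for cations and water in leaky epithelia, and Cldn20. Cldn2 had 1, 1 and 0 counts in EV and 12, 9 and 10 counts in PPFP libraries without pioglitazone, and 2, 3 and 0 against 5, 7 and 6 with it, a handful of reads that did not overlap between the cell types. The third added gene, called only with pioglitazone, was Dsg3, a desmoglein of stratified epithelium, with 16, 3 and 9 counts in EV and 3, 1 and 1 counts in PPFP libraries.

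Of the remaining tight junction genes, Marveld2 (tricellulin) and Tjp3 (ZO-3) rose and the main structural components did not pass the test without pioglitazone. Marveld2 was at 7.87, 9.19 and 8.46 CPM in EV and 15.6, 15.7 and 15.8 CPM in PPFP libraries, a log2 fold change of 0.89 (SE 0.11, edgeR adjusted p = 0.00059). With pioglitazone the log2 fold change was 0.86 (SE 0.14, adjusted p = 0.0016). Every PPFP library was above every EV library, and the change stayed just under 2-fold. Tjp3 was at 50.8 ± 4.24 CPM in EV and 70.9 ± 10.1 CPM in PPFP cells (n = 3), a log2 fold change of 0.48 (SE 0.12, edgeR adjusted p = 0.015) that lost the threshold without replicate 2 or 3 of PPFP cells without pioglitazone (adjusted p up to 0.056). With pioglitazone it was 0.54 (SE 0.12, adjusted p = 0.0072).

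Ocln, next to Marveld2 in the genome, passed the test only with pioglitazone, and in the other direction. Without pioglitazone Ocln was at 26.6, 31.1 and 27.2 CPM in EV and 28.7, 26.8 and 32.1 CPM in PPFP libraries, overlapping groups with a log2 fold change of 0.04 (SE 0.11, edgeR adjusted p = 0.76). With pioglitazone it was at 27.3, 30.5 and 27.2 CPM in EV and 21.3, 21.6 and 20.8 CPM in PPFP libraries, no longer overlapping, with a log2 fold change of -0.40 (SE 0.08, adjusted p = 0.0057).

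Tjp1 (ZO-1), a scaffold, and F11r (JAM-A) did not pass the test in either comparison. Tjp1 was at 482.9 ± 88.7 CPM in EV and 507.0 ± 42.8 CPM in PPFP cells without pioglitazone (n = 3), with a log2 fold change of 0.07 (SE 0.14, edgeR adjusted p = 0.71). F11r had a log2 fold change of -0.07 (SE 0.10, adjusted p = 0.58) without and -0.24 (SE 0.09, adjusted p = 0.060) with pioglitazone. The range of these log2 fold changes and those of Jup and Dsc2 below, from -0.24 to 0.25, was small beside that of Cdh16 or Cldn9.

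In desmosomes, Pkp2, the plakophilin of simple epithelia and heart, rose. It was at 41.7, 43.4 and 35.5 CPM in EV and 66.8, 66.1 and 65.7 CPM in PPFP libraries without pioglitazone, and at 41.1, 43.7 and 35.7 CPM against 91.7, 92.9 and 91.0 CPM with it. All PPFP libraries were above all EV libraries. The log2 fold change was 0.72 (SE 0.10, edgeR adjusted p = 0.00080) and 1.21 (SE 0.09, adjusted p = 4.1e-05). Jup, plakoglobin, shared by desmosomes and adherens junctions, was at 429.3 ± 43.4 CPM in EV and 509.7 ± 29.9 CPM in PPFP cells without pioglitazone (n = 3), a log2 fold change of 0.25 (SE 0.10, edgeR adjusted p = 0.077). Dsc2, the desmocollin of simple epithelia, had log2 fold changes of 0.10 (SE 0.09, adjusted p = 0.42) and -0.06 (SE 0.09, adjusted p = 0.60).

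Among gap junction genes, Gjb5, a connexin known from skin and placenta, appeared in PPFP cells. EV libraries had 2, 2 and 0 counts without and 1, 1 and 0 counts with pioglitazone, and PPFP libraries had 29, 30 and 17 counts without and 58, 37 and 44 counts with it. Taking 3 counts in each EV library as the bound, the level in PPFP cells was at least 9.65-fold higher without (edgeR adjusted p = 0.00072) and at least 17.9-fold higher with pioglitazone (adjusted p = 8.1e-05). Its absolute level stayed low, at 1.68 ± 0.448 CPM (n = 3) in PPFP cells with pioglitazone.

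Gjb1, the main connexin of liver and also a thyroid connexin, did not pass the test without pioglitazone and was lower in PPFP cells with it. Without it Gjb1 was at 30.5, 26.9 and 26.4 CPM in EV and 26.6, 23.5 and 22.2 CPM in PPFP libraries, overlapping by 1 library (log2 fold change -0.21, SE 0.11, edgeR adjusted p = 0.15). With it the levels were 24.9, 19.8 and 22.6 CPM in EV and 14.7, 10.6 and 9.28 CPM in PPFP libraries, a log2 fold change of -0.95 (SE 0.18, adjusted p = 0.0039). Gja4, a connexin of blood vessels, did not pass the test (-0.05, SE 0.17, adjusted p = 0.85, and -0.20, SE 0.20, adjusted p = 0.42).

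Epcam, the epithelial cell adhesion molecule, had few reads. With pioglitazone it had 11, 17 and 8 counts in EV and 28, 23 and 21 counts in PPFP libraries, a log2 fold change of 1.23 (SE 0.34, edgeR adjusted p = 0.019). The groups did not overlap, but the call was lost without replicate 1 of EV cells, or replicate 1 or 2 of PPFP cells, with pioglitazone (adjusted p up to 0.081). Without pioglitazone it was not tested, with 7, 22 and 9 counts in EV and 17, 5 and 6 in PPFP libraries.

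**Figure D3:**
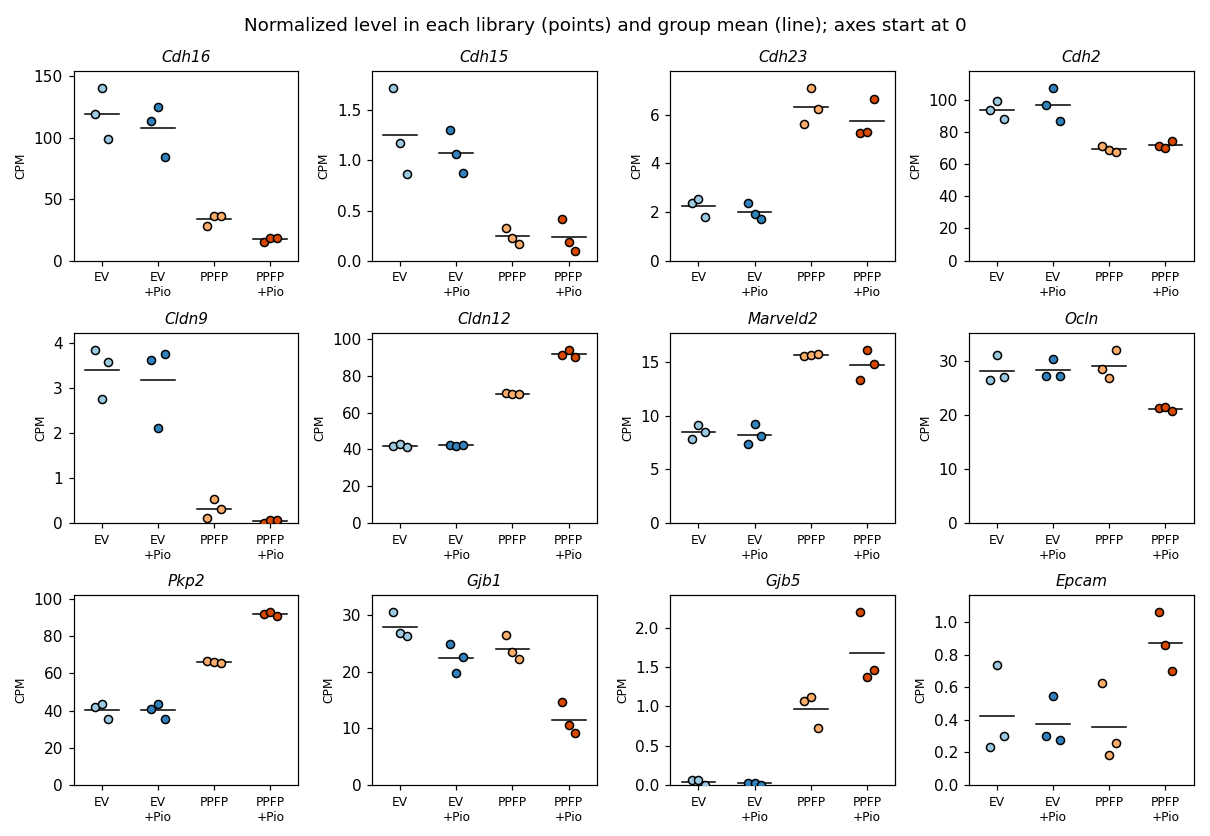
Level of 12 junction genes in every library (points, CPM normalized by TMM, vertical axes from 0) by group, with the mean of each group as a line. Cdh16, Cdh15 and Cldn9 were low in PPFP cells, Cdh23, Marveld2, Cldn12, Pkp2 and Gjb5 were high, and Gjb1 and Ocln were lowest in PPFP cells with pioglitazone.

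Levels of different genes in these plots and sentences cannot be ranked, because CPM values are not corrected for transcript length.

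The next comparison was of pioglitazone with vehicle in PPFP cells, which addresses how cells with the fusion protein respond to the agonist. Of 21 junction genes tested, 6 passed an adjusted p of 0.05 (14.8% of the 10064 genes tested), 2 higher and 4 lower. Cldn12 and Pkp2 rose, and Cdh16, Ocln and Gjb1 were among those that fell. Only Gjb1 was called with a fold change above 2 (2.42% of all genes). The replicate numbers were taken to pair the libraries within a cell type, although numbers 2 and 3 were not told apart in PPFP cells. With that pairing in the fit 13 genes passed, 4 higher and 9 lower (51.6% of all genes), and 2 were called (3.20%), Gjb1 and Epcam. The median log2 fold change was -0.11 over the 21 genes and 0.012 over all genes. Without replicate 2 of PPFP cells with pioglitazone 3 junction genes passed an adjusted p of 0.05 and Cdh16 was the 1 called. Without replicate 3 there were 4 and none was called. Cdh16, Cldn12 and Pkp2 passed in both cases. Over all genes 76 were called higher and 88 lower of 10150 without replicate 2, and 83 and 98 of 10141 without replicate 3. With all libraries these were 112 and 132 of 10064. When these fits were also paired, 13 and 11 junction genes passed (45.6% and 40.3% of all genes), in fits added after seeing the data. The genes called there were Gjb1 and Gjb5 without replicate 2, where Epcam was not called, and Gjb1 and Epcam without replicate 3.

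Gjb1 went from 26.6, 23.5 and 22.2 CPM in PPFP libraries without pioglitazone to 14.7, 10.6 and 9.28 CPM with it, 2 groups that did not overlap. The log2 fold change was -1.06 (SE 0.17, edgeR adjusted p = 0.0097), and -1.07 (SE 0.07, adjusted p = 2e-11) with the replicates paired. Leaving out replicate 2 of PPFP cells with pioglitazone gave an adjusted p of 0.054, and leaving out replicate 3 gave a change of less than 2-fold.

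Cdh16, already lower in PPFP than in EV cells, fell further, from 33.8 ± 4.48 to 17.5 ± 1.91 CPM (n = 3). Its log2 fold change was -0.94 (SE 0.13, edgeR adjusted p = 0.0064), with no overlap between the groups. Cldn12 went from 70.4 ± 0.377 to 91.9 ± 1.98 CPM (log2 fold change 0.39, SE 0.05, adjusted p = 0.0040), and Pkp2 from 66.2 ± 0.578 to 91.9 ± 0.937 CPM (0.48, SE 0.05, adjusted p = 0.0018), so both rose above levels that were already higher than in EV cells. Ocln went from 29.2 ± 2.66 to 21.2 ± 0.370 CPM (-0.45, SE 0.08, adjusted p = 0.015). Ocln no longer passed the adjusted p without replicate 3 of PPFP cells without pioglitazone and without replicate 2 or 3 of those with it (adjusted p up to 0.066).

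Epcam had 17, 5 and 6 counts in PPFP libraries without and 28, 23 and 21 counts with pioglitazone, which gave a log2 fold change of 1.27 (SE 0.44, edgeR adjusted p = 0.12). Paired by replicate it was 1.29 (SE 0.33, adjusted p = 0.0021). The other 6 genes that passed only with pairing were Gjb5 (log2 fold change 0.79) and, lower, Gja4 (-0.42), Jup (-0.23), F11r (-0.16), Dsc2 (-0.13) and Tjp1 (-0.11). Their sizes were all below 2-fold.

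In EV cells, which lack the fusion protein, pioglitazone called no junction gene of 20 tested (0% of 10146 genes at an adjusted p of 0.05 and a 2-fold change, edgeR). At an unadjusted p under 0.05 there was 1 junction gene, Gjb1 (0.158% of all genes, which is 16 genes), and with the replicates paired there were 3 at that level (5.96% of all genes) and none after adjustment. DESeq2 and edgeR's exact test also called none of them. Gjb1 was at 30.5, 26.9 and 26.4 CPM without and 24.9, 19.8 and 22.6 CPM with pioglitazone, groups that did not overlap, with a log2 fold change of -0.32 (SE 0.11; edgeR, adjusted p = 1). The other 19 log2 fold changes were between -0.35 and 0.31, the widest in genes with few reads (Dsc3 and Cldn15).

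**Figure D4:**
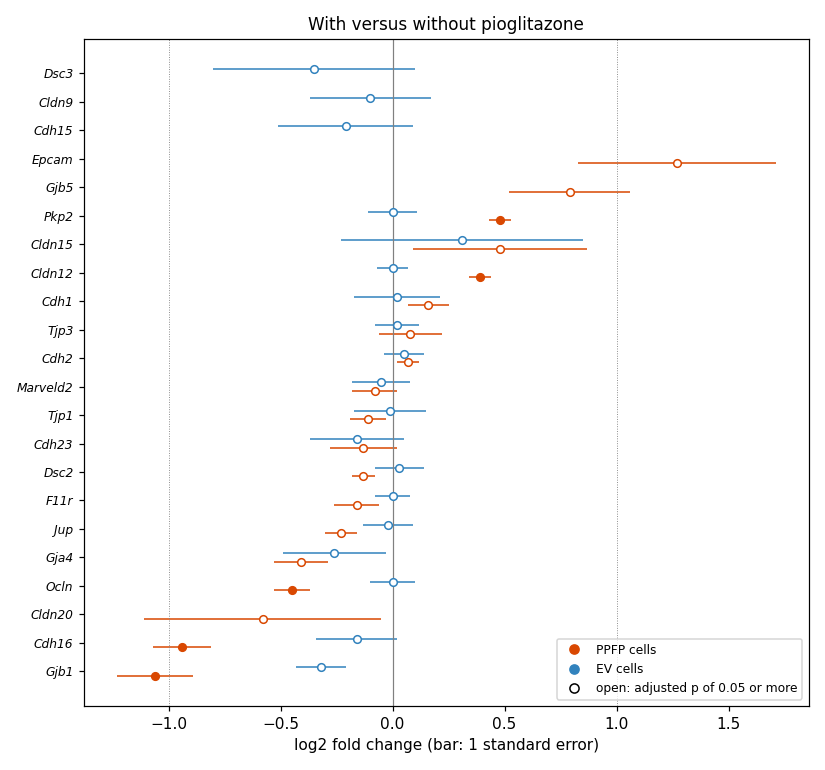
Log2 fold change with over without pioglitazone (horizontal axis; bars are 1 standard error) for the junction genes tested and reported here, in PPFP and in EV cells; filled points passed an adjusted p of 0.05 and dotted lines mark a 2-fold change. The 5 filled points are all from PPFP cells, and Gjb1 (-1.06) is farthest from 0 among them.

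Whether the response to pioglitazone differed between PPFP and EV cells was tested as an interaction over the 12 libraries. Of 24 junction genes, Cldn12 alone passed an adjusted p of 0.05 (2.64% of 10482 genes) and none was called with a fold above 2 (0.925%), while 7 had an unadjusted p under 0.05 (13.3% of all genes). DESeq2 also called none, and 5 passed its adjusted p, 2 with a higher and 3 with a lower response in PPFP cells. The response of Cldn12 was greater in PPFP cells by 0.38 on the log2 scale (SE 0.08, edgeR adjusted p = 0.024), and this was lost in 7 of the 12 fits that left out 1 library (adjusted p up to 0.084). With the replicates paired within each cell type, 11 of the 24 passed (34.3% of all genes), 3 with a higher and 8 with a lower response in PPFP cells, and 2 were called (2.57%). These 2 were Epcam (1.45, SE 0.47, edgeR adjusted p = 0.030) and Cldn9, for which no size is given because its PPFP libraries with pioglitazone, at 0, 2 and 2 counts, were at the floor. In the paired fit without replicate 2 of PPFP cells with pioglitazone 8 of 26 junction genes passed (26.3% of all genes) and none was called, and without replicate 3 there were 8 of 27 (27.4%) and 1, Cldn9. Epcam passed in neither. Paired values for the genes above were -0.79 for Cdh16 (adjusted p = 6.1e-07), -0.76 for Gjb1 (adjusted p = 7.1e-05), -0.46 for Ocln (adjusted p = 0.00061) and 0.47 for Pkp2 (adjusted p = 1.1e-05). Unpaired, the same genes had adjusted p values of 0.12, 0.11, 0.096 and 0.081.

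Other genes of junctions and of the polarity complexes that position them were examined as a list of 65 names (some of them older and newer names of one gene), of which 50 were in the table. Without pioglitazone 40 were tested in PPFP versus EV cells, 18 passed an adjusted p of 0.05 (8 higher and 10 lower), or 45.0% against 45.2% of all genes, and 8 were called, 4 in each direction (7.27% and 7.31% of all genes). The median log2 fold change was -0.04. Cgnl1 (paracingulin, which links junctions to microtubules and small GTPases) rose from 1.20 ± 0.242 to 6.20 ± 1.73 CPM (n = 3; log2 fold change 2.37, SE 0.28, edgeR adjusted p = 0.00044). Perp, a desmosomal membrane protein, rose from 22.7 ± 1.73 to 83.0 ± 4.88 CPM (1.87, SE 0.10, adjusted p = 1e-05). Of 4 basolateral polarity genes on the list, 2 rose and 2 did not pass without pioglitazone. Scrib rose from 255.7 ± 25.6 to 900.2 ± 94.9 CPM (1.82, SE 0.12, adjusted p = 2.4e-05) and Llgl2 from 74.2 ± 11.6 to 187.5 ± 18.3 CPM (1.34, SE 0.13, adjusted p = 0.00019), while Llgl1 (-0.15, adjusted p = 0.35) and Dlg1 (0.13, adjusted p = 0.42), both named after their values were seen, did not pass. With pioglitazone Dlg1 was at 135.4 ± 10.4 CPM in EV and 200.3 ± 15.6 CPM in PPFP cells (n = 3), with no overlap. Llgl1 was then at 87.2 ± 10.6 and 72.0 ± 6.8 CPM, with overlap.

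The 4 called lower were Prkcz, Pard6b, Crb2 and Pvrl3. Prkcz, an atypical protein kinase C of the PAR complex, fell from 380.0 ± 50.1 to 104.2 ± 7.67 CPM (n = 3; log2 fold change -1.87, SE 0.12, edgeR adjusted p = 2.5e-05). Prkci, the other atypical kinase of that complex, named after its values were seen, rose by less than 2-fold, from 198.7 ± 9.43 to 308.4 ± 19.1 CPM (0.63, SE 0.08, adjusted p = 7e-04). Pard6b, a partner of both, fell from 40.1 ± 1.05 to 16.2 ± 1.72 CPM (-1.30, SE 0.10, adjusted p = 7e-05), and Crb2, a Crumbs protein, from 1.03 ± 0.146 to 0.154 ± 0.0280 CPM (-2.70, SE 0.33, adjusted p = 0.00052). Crb2 had 5, 4 and 3 counts in the PPFP libraries. Other apical polarity genes, named after their values were seen, were not called. Mean levels in EV and PPFP cells were 6.42 and 7.71 CPM for Crb3, 66.8 and 78.6 for Pard3, and 51.3 and 48.9 for Mpp5. They were 5.19 and 3.74 CPM for Pard6a, 9.27 and 5.00 for Pard6g, and 28.8 and 15.7 for Pard3b. Pvrl3 (nectin-3), an adhesion molecule of adherens junctions, fell from 62.6 ± 12.1 to 26.4 ± 3.23 CPM (-1.24, SE 0.16, adjusted p = 0.00063). With pioglitazone 12 of 40 were called, 4 higher and 8 lower (9.30% and 10.4% of all genes), and 11 or 10 without replicate 2 or 3 of PPFP cells with pioglitazone. In PPFP cells pioglitazone called 1 of 39, or 2.56% against 2.42% of all genes. This was Ppl (periplakin, a desmosome-associated plakin), which fell from 44.4 ± 11.2 to 14.4 ± 3.49 CPM (n = 3; -1.61, SE 0.26, edgeR adjusted p = 0.0093). Ppl was also the 1 gene of 41 called in the interaction (0.925% of all genes; -1.63, SE 0.30, adjusted p = 0.016), and none of 41 was called in EV cells (none at an unadjusted p under 0.05, and none by DESeq2).

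Among 14 regulators of epithelial adhesion listed by name, 12 were in the table and 7 were tested in PPFP versus EV cells without pioglitazone. Of these 7, 5 passed an adjusted p of 0.05 (45.2% of all genes) and 4 were called, 2 in each direction (7.27% and 7.31%). Grhl2, a grainyhead factor that activates epithelial junction genes, rose from 7.40 ± 0.964 to 18.5 ± 2.42 CPM (n = 3; log2 fold change 1.33, SE 0.15, edgeR adjusted p = 0.00040), and its relative Grhl3 fell from 20.6 ± 6.86 to 2.60 ± 0.866 CPM (-2.99, SE 0.34, adjusted p = 0.00035). The epithelial splicing factors also moved apart, Esrp1 upward (1.07, SE 0.30, adjusted p = 0.023) and Esrp2 downward (-1.16, SE 0.37, adjusted p = 0.035). With pioglitazone neither passed, with 0.15 (SE 0.31, adjusted p = 0.71) for Esrp1 and -0.87 (SE 0.41, adjusted p = 0.11) for Esrp2, while Grhl2 (2.10, SE 0.14, adjusted p = 3.5e-05) and Grhl3 (-3.00, SE 0.38, adjusted p = 0.00053) were called. The fifth was the repressor Zeb2, named after its values were seen, which fell by less than 2-fold, from 45.7 ± 12.6 to 30.4 ± 0.665 CPM (n = 3; -0.59, SE 0.18, edgeR adjusted p = 0.031), and with pioglitazone its log2 fold change was -0.94 (SE 0.13, adjusted p = 0.00078).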

How the data were processed

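RNA-seq was made with a TruSeq kit that does not keep strand, and the authors aligned the reads to rn4 with TopHat2 2.0.11 and deposited unnormalized counts per gene symbol made with HTSeq 0.6.1p1 in intersection-strict mode. Reads of overlapping or near-identical genes cannot be told apart or were dropped in this mode. Peak lists and input from 1 ChIP experiment were not used here, since their positions are in rn4 and the gene table used here is in GRCr8.

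The tests were run with edgeR 4.0.16 in R 4.3.3: filterByExpr, TMM and the quasi-likelihood test with Benjamini-Hochberg adjustment over all genes tested, on the 6 libraries of each comparison, and an interaction term over all 12. All adjusted p values come from this test unless another tool is named. Called genes had a fold change above 2 and an adjusted p under 0.05. For CPM, the TMM factors came from all 12 libraries together. Standard errors were derived from the log2 fold change and the F statistic. A group was at the floor where no library had more than 3 counts. The biological coefficient of variation was between 0.126 and 0.156. On simulated counts of 10234 genes for PPFP versus EV cells without pioglitazone, 163 of 200 changed genes (81.5%) were called, with 1 false call. The simulation gave every gene the same dispersion, had no alike libraries, and changed only genes with enough reads, some by exactly 2-fold. In the data 4635 genes differed, so these figures do not carry over to the junction genes, least of all those with few reads.

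Deviations from the group means of libraries with the same number correlated at 0.743, 0.465 and 0.434 in PPFP cells and 0.531, 0.729 and 0.774 in EV cells, so the numbers were taken to pair libraries within a cell type. In PPFP cells this did not tell numbers 2 and 3 apart. Number 2 without and number 3 with pioglitazone correlated at 0.535, and number 3 without and number 2 with it at 0.349. Replicates are described as independent experiments on the same transfected cells. Whether the 2 closely alike libraries of PPFP cells with pioglitazone share a preparation was not tested, and p-values measure only the spread between these libraries, which would be too small if they do.

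The genes and lists were chosen with earlier results of these data known. Every junction gene could be named. Those called in any comparison, and a set of well-known ones chosen by name, were described singly, and genes of the other lists where called. Cd68, Pdgfra, Col1a1, Krt19, Prkci, Llgl1, Dlg1, Zeb2, Crb3, Pard3, Mpp5, Pard6a, Pard6g and Pard3b were added after their values were seen. Alternatives were edgeR's exact test, DESeq2 1.42.0, RLE or no scaling factors, no filter or at least 10 counts in every library, a replicate block, leaving out each library, and, added after seeing the data, the block without either of the 2 alike libraries. Sequences are from RefSeq (GRCr8). Figures were drawn in Python 3.11.15 with matplotlib 3.10.9. Some genes are counted but not reported here by name.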

Additional observations from a re-analysis of the deposited data

Results flagged for a closer look

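The response of Cldn12 to pioglitazone differed between PPFP and EV cells by 0.38 on the log2 scale (SE 0.08, edgeR interaction term, adjusted p = 0.024). It was 0.39 (SE 0.05) in PPFP cells, where all 3 libraries with pioglitazone were above all 3 without, and 0.00 (SE 0.07) in EV cells, where the libraries overlapped. The difference was between 0.34 and 0.39 under the 18 alternatives, with an adjusted p between 6.3e-06 and 0.084.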

How the results depend on the processing

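Of 31 results of single junction genes with an adjusted p under 0.05, 24 passed it under every alternative that gave a value, 7 were lost under at least 1, and none reversed; of 76 that did not pass, 19 passed under at least 1. With at least 10 counts required in every library, 2 junction genes were called in PPFP versus EV cells without pioglitazone and 4 with it, since fewer genes were tested. For pioglitazone in PPFP cells, the exact test called 2 junction genes and 2 of the other junction list, where DESeq2 also called 2. For the difference in response, DESeq2 called 2 of the other junction list. Leaving out 1 library gave 0 to 3 junction genes called for pioglitazone in PPFP cells, with 3 without replicate 1 of PPFP cells without pioglitazone and 0 without replicate 3 of those with it, and 1 to 2 of the other list, with 2 without replicate 1 of either PPFP group. For the difference in response it gave 0 to 1 of the other list, with 0 without replicate 1 of EV cells with pioglitazone or replicate 2 or 3 of PPFP cells without. The cause of these differences was not tested.

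With the replicate block, 2 junction genes and 2 of the other list were called for pioglitazone in PPFP cells and the same numbers for the difference in response. Between the cell types libraries of the same number did not deviate together (correlations from -0.378 to 0.315). All samples of an experiment shared sequencing lanes, but whether a number marks the same experiment in both cell types is not given in the sources used here, so whether they are paired there is not known. The block there left 10 junction genes past the adjusted p without pioglitazone and 13 with it, with 5 and 8 called, and not every library correlated best with its own number. In paired fits added after seeing the data, leaving out replicate 2 or 3 of PPFP cells with pioglitazone gave 2 (Gjb1 and Gjb5) and 2 (Gjb1 and Epcam) junction genes called for pioglitazone in PPFP cells and 0 and 1 for the difference in response. Of the 70 genes, 32 never passed 3 counts, and no difference in them was detectable at this depth.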
